A study of Mus musculus with 12 samples.

Results

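General myeloid and phagocyte genes are a set of 38 genes, made up of genes of macrophages, monocytes or neutrophils and genes that all leukocytes carry. They were chosen by name, with earlier results of these data known, and each was read through the array probe set that carries its symbol alone, so that all 38 were measured among 22180 genes in all. Phagocytes engulf particles, dying cells and lipid. They sense microbes and debris with pattern receptors, bind antibody through Fc receptors that signal by way of small ITAM adaptors, tag targets with complement C1q, and make superoxide with the phagocyte NADPH oxidase. The transcription factor PU.1, the product of Spi1, drives much of this programme. In the liver the resident phagocytes are the Kupffer cells, to which blood monocytes can add.

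RNA came from the liver of male mice, with 3 arrays, labelled as biological replicates, in each of 4 groups. The labels do not say whether each array is a separate mouse, so the tests measure the spread between these arrays. Wild-type mice and mice labelled Lats2-CKO (in other labels Lats2-KO), aged 8 weeks, ate for 9 weeks either a normal chow without cholesterol (ND, here chow) or a high-cholesterol (Paigen) diet with 1.25% of it (HCD, here cholesterol diet). The age of 8 weeks is shorter than the time on the diet, so it cannot be the age at tissue collection. Strain, the deleted part of Lats2, the cells that lost it and any treatment of the controls are not given in the sources used here. The design compares the diets within each genotype and the genotypes on each diet; Lats2 is a kinase of the Hippo pathway. A level below is the deposited log2 value of a probe set, on which 1 unit is a doubling, and a change is a difference of such values.

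Markers of the tissue were present on every array, since the mean over 10 hepatocyte genes lay between 11.27 and 11.42 in all 4 groups. Lats2 read 5.12 to 5.97 on the wild-type arrays and 4.37 to 4.99 on the Lats2-CKO arrays, without overlap, and which part of the gene the probe set reads relative to the deletion was not tested. The arrays formed 2 sets by their overall median, 6 in each, and the higher set held 4 chow arrays and the lower set 2. In each genotype the higher set held chow arrays 1 and 2 and cholesterol-fed array 1, and the lower set the rest. Within a set each genotype thus had only 1 cholesterol-fed array (higher set) or only 1 chow array (lower set). Over genes, 7 of the 12 arrays correlated best with an array of another group. They were wild-type chow array 3 (0.993 with Lats2-CKO cholesterol-fed array 3, against 0.982 at most in its own group), all 3 wild-type cholesterol-fed arrays, Lats2-CKO chow array 1 and Lats2-CKO cholesterol-fed arrays 1 and 3. In bulk liver, a greater number of phagocytes and more RNA per phagocyte cannot be told apart, which holds for every change below.

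On the cholesterol diet 37 of the 38 genes had higher fitted values when the genotypes were averaged (6 arrays against 6), and 3 of them, Ly86, Mpeg1 and C1qb, rose past the threshold. The median change of the 38 was 0.83, against -0.019 over all genes. The limma threshold, an adjusted p below 0.05 over all genes, was passed on the higher side by 0.365% of genes, and a fitted value above 0 was found for 44.7%. At an unadjusted p below 0.05, 29 of the 38 were higher, where 7.56% of all genes were higher. Calprotectin, whose subunits S100a8 and S100a9 neutrophils carry in abundance, had fitted changes near 0, of 0.08 ± 0.15 and -0.06 ± 0.14 (SE). The sign of these changes turned without wild-type chow array 3 (S100a8, -0.02) or array 2 (S100a9, 0.06). Both genes read low, at 3.14 to 3.82 and 3.33 to 4.14, where the 30th percentile of all values was 3.048.

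**Figure D1:**
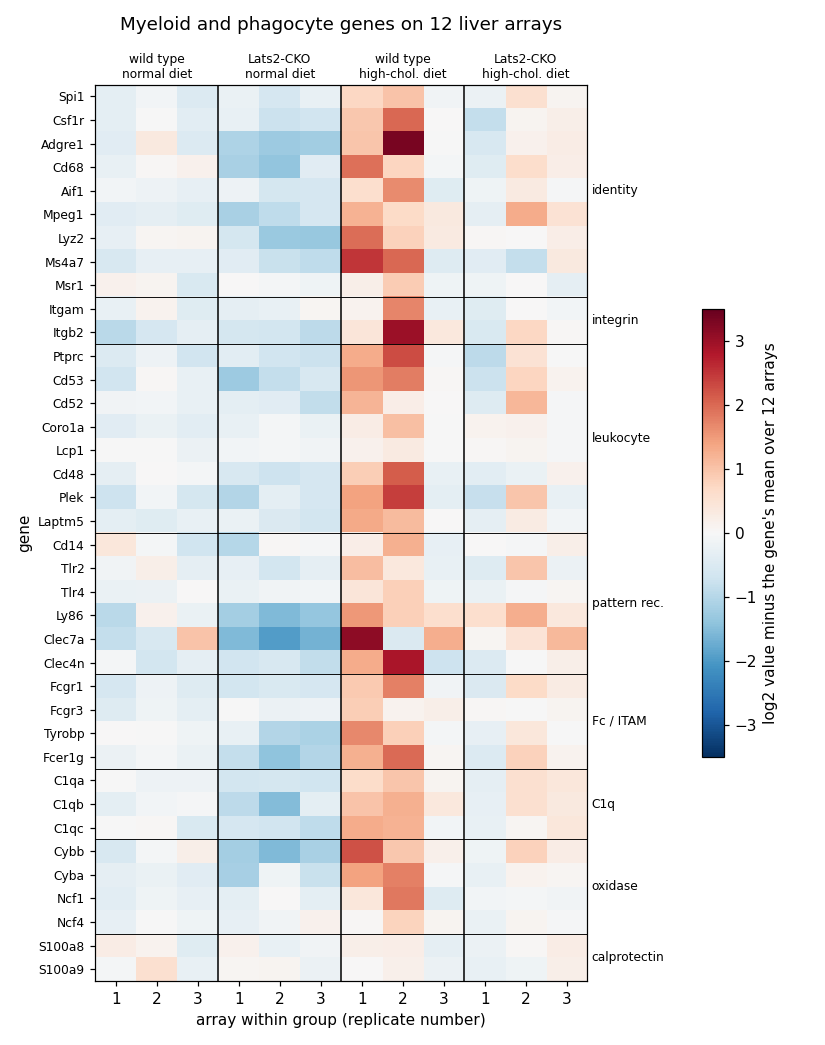
Heat map of the 38 genes (rows, by role) on the 12 arrays (columns, by group and replicate number). Colour is the log2 value minus the gene's mean over the 12 arrays, red above and blue below. Wild-type cholesterol-fed arrays 1 and 2 are red for nearly every gene, array 3 of that group is pale, and the 3 Lats2-CKO chow arrays are mostly blue.

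Ly86 encodes MD-1, which pairs with a homologue of the toll-like receptors. It read 6.21, 7.30 and 6.93 on the wild-type chow arrays and 8.67, 7.99 and 7.74 on the wild-type cholesterol-fed arrays. In Lats2-CKO livers it read 5.96, 5.63 and 5.81 on chow and 7.74, 8.43 and 7.54 on the cholesterol diet. All 6 cholesterol-fed values therefore lay above all 6 chow values, which was so for 0.379% of all genes on the higher side and for 3 of the 38, the others being Fcgr3 and Coro1a. For Fcgr3 and Coro1a the lowest cholesterol-fed value (4.13 and 3.88) barely exceeded the highest chow value (4.12 and 3.87). The rise of Ly86 was 1.71 ± 0.22 over both genotypes, a fold of 3.27 (limma adjusted p = 0.0192). Within the array sets it was 1.93 (higher set, with 1 cholesterol-fed array of each genotype) and 1.55 (lower set, with 1 chow array of each). Ly86 was called in 20 of 21 alternatives (adjusted p 0.00351 to 0.055), and without Lats2-CKO chow array 3 it was not.

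Mpeg1 encodes perforin-2, a pore-forming protein of macrophages that acts on engulfed bacteria. It read 7.65, 7.73 and 7.61 in wild-type livers on chow and 9.26, 8.70 and 8.38 on the cholesterol diet, with no overlap. The Lats2-CKO values were 6.89, 7.14 and 7.44 on chow and 7.71, 9.34 and 8.55 on the cholesterol diet, also apart. Mpeg1 rose by 1.25 ± 0.24 over both genotypes (limma adjusted p = 0.0427). The call held in 9 of 21 alternatives, with changes of 1.05 to 1.46 and adjusted p of 0.0131 to 0.119.

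C1qb encodes the B chain of C1q, the recognition part of the classical complement pathway, which in the liver comes mainly from macrophages. It read 8.35, 8.58 and 8.63 on wild-type chow arrays and 9.69, 9.92 and 9.04 on wild-type cholesterol-fed arrays. On Lats2-CKO arrays it read 7.77, 7.17 and 8.33 on chow and 8.39, 9.24 and 9.03 on the cholesterol diet, so that within each genotype the diets did not overlap. It rose by 1.08 ± 0.22 (limma adjusted p = 0.0461), a call that held in 7 of 21 alternatives at 0.87 to 1.22 (adjusted p 0.018 to 0.133). The A and C chains, encoded beside it, had a fitted change of 0.78 ± 0.17 and 0.89 ± 0.23 and missed the threshold (limma adjusted p = 0.0513 and 0.0835).

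The number of genes called among the 38 depended on single arrays. It was 19 without wild-type cholesterol-fed array 3 and 7 without wild-type chow array 3. It was 2 without wild-type cholesterol-fed array 1 (Ly86 and Lyz2) or Lats2-CKO cholesterol-fed array 1 (Ly86 and Mpeg1). It was 1, Ly86 alone, without wild-type chow array 1 or 2, Lats2-CKO chow array 1 or 2, wild-type cholesterol-fed array 2, or Lats2-CKO cholesterol-fed array 2 or 3, and 0 without Lats2-CKO chow array 3. With the array sets as a block it was again Ly86 alone, while 5 genes (Ly86, Lyz2, Cybb, Fcgr3 and Clec7a) passed with that block and without wild-type chow array 3. The median of the 38 stayed between 0.74 and 1.06 over these omissions, and was 0.66 in the higher and 0.87 in the lower of the array sets.

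**Figure D2:**
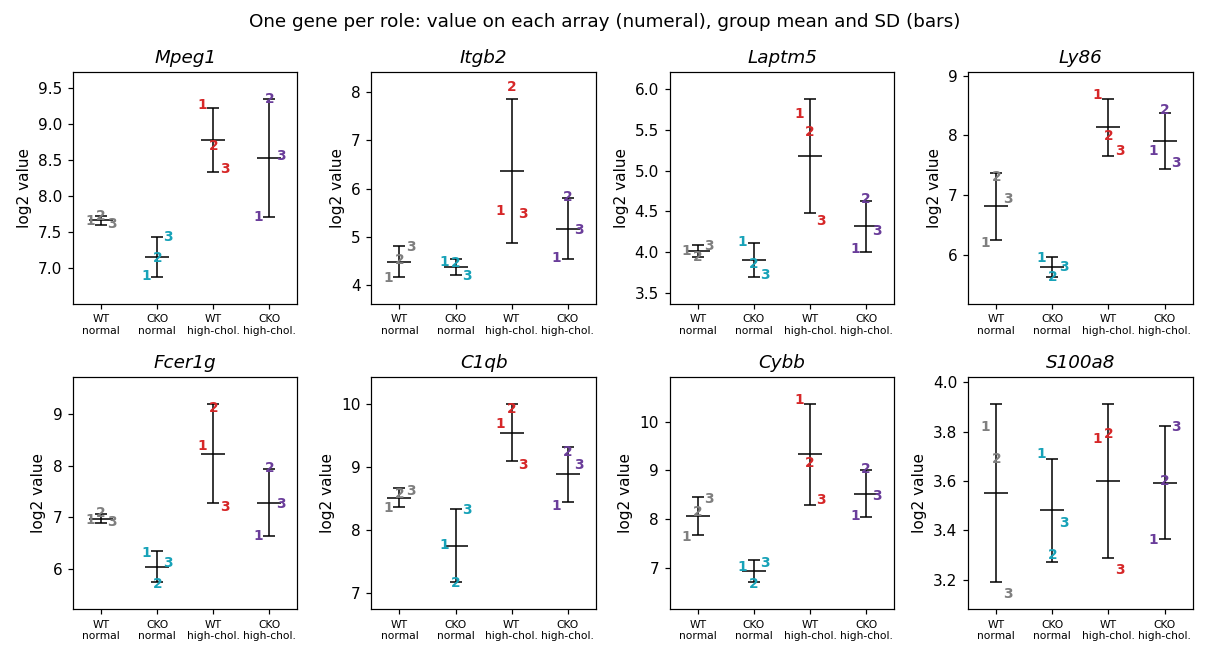
Log2 value on each array (numeral, the replicate number) for the gene with the smallest unadjusted p for diet in each role, with the group mean and SD (3 arrays) as a bar. Ly86 is above every chow array on all 6 cholesterol-fed arrays, and S100a8 shows no separation.

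Since PU.1 binds purine-rich sites, the RefSeq promoter windows of the genes (GRCm38.p6, 250 bases before to 50 after the start) were searched for the PU box letters GAGGAA and the longer form GAGGAAGT on both strands. Of the 38 genes, 26 had a window, and Adgre1, Csf1r, Itgb2, Cd14, C1qa, Msr1, Tyrobp, Spi1, Cd52, Tlr4, Clec4n and Ncf4 did not. GAGGAA, which is also part of the longer form, was found in 17 of 32 windows (53.1%), against 28.3% of all 32851 windows. Some genes had 2 windows, and by gene it was found in 15 of 26 (57.7%), against 31.3% of all genes with a window. The longer form was in 3 of the 32 (9.38%, against 3.2%), those of C1qc, Cd53 and S100a8. The 250 bases before the start are shown for the 3 genes that rose, for C1qc, which lies beside C1qb and holds the longer form, and for S100a8, which holds both forms and was not called.
C1qb: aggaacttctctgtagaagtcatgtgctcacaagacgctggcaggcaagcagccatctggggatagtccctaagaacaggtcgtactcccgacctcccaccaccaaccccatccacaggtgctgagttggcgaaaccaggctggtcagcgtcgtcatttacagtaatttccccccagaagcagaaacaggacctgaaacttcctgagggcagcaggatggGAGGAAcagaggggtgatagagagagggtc
C1qc: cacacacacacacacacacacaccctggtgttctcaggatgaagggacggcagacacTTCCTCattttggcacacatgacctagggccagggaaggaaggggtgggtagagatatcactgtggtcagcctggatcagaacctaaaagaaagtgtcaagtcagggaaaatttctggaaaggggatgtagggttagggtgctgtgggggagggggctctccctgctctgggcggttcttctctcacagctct
Ly86: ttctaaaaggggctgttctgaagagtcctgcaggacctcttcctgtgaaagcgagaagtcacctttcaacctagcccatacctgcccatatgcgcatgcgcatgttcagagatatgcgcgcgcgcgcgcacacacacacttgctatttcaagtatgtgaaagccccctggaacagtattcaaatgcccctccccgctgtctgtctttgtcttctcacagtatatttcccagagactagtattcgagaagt
Mpeg1: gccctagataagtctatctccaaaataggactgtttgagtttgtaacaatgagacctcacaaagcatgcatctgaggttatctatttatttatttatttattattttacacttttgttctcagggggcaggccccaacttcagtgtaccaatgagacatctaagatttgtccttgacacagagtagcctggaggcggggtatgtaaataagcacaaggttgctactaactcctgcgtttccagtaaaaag
S100a8: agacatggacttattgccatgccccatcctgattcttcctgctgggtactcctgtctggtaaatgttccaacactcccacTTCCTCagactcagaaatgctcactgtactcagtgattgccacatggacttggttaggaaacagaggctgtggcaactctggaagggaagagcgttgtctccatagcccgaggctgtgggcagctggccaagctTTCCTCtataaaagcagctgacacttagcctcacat
Capitals mark GAGGAA, or TTCCTC where it lies on the other strand, and each sequence is written 5′ to 3′ on the gene's strand. The stretches are chr4:136886201-136886450 (minus strand), chr4:136892915-136893164 (minus strand), chr13:37345095-37345344 (plus strand), chr19:12460520-12460769 (plus strand) and chr3:90668821-90669070 (plus strand). In C1qb the letters begin 30 bases before the start, in C1qc 193 bases and in S100a8 170 and 36 bases before it. The windows of Ly86 and Mpeg1 do not hold these letters. The letters were thus found before C1qb, which rose, and before S100a8, which was not called.

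Among the 9 genes of phagocyte identity, all had higher fitted values on the cholesterol diet, with a median change of 1.01 over both genotypes, and 1, Mpeg1, was called. Adgre1, which encodes a surface protein that marks mouse macrophages, had a change of 1.37 ± 0.45, and Lyz2, the lysozyme of myeloid cells, 1.13 ± 0.24. Limma adjusted p was 0.148 and 0.0513. Lyz2 has a near-identical neighbour, Lyz1, whose transcripts the probe set may also read. Cd68, a lysosomal glycoprotein of macrophages, read 6.82 to 7.23 on wild-type chow arrays, and 9.02, 7.84 and 7.03 on the cholesterol diet, so that array 3 lay inside the chow range. Ms4a7, a membrane protein of macrophages, read 6.23 and 5.75 on wild-type cholesterol-fed arrays 1 and 2 and 2.84 to 4.08 on the other 10 arrays. It was dim outside those 2 arrays, and below the 30th percentile of all values (3.048) on 3 arrays. Spi1 itself had a fitted change of 0.68 ± 0.19 and the receptor of macrophage colony-stimulating factor, Csf1r, one of 0.81 ± 0.30, neither past the threshold. Aif1, the actin-binding protein IBA1, had a fitted change of 0.65 ± 0.27, and Msr1, a scavenger receptor, one of 0.17 ± 0.17.

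Of the genes of pattern recognition 6 of 6 were higher, with a median change of 0.77, and 1, Ly86, was called. Clec7a encodes dectin-1, which binds beta-glucan, and Clec4n dectin-2, which binds mannans. Clec7a had the largest fitted change of the 38, 1.85 ± 0.53 (limma adjusted p = 0.108), with wild-type values of 5.39, 5.67 and 7.23 on chow and 9.35, 5.72 and 7.51 on the cholesterol diet, which overlapped. In Lats2-CKO livers its values were 4.67, 4.28 and 4.56 on chow against 6.29, 6.70 and 7.35, which did not. Clec4n had a fitted change of 1.04 ± 0.46, and read 5.68 and 7.24 on wild-type cholesterol-fed arrays 1 and 2 but 3.67 on array 3, below its chow values of 3.74 to 4.31. The lipopolysaccharide receptor Tlr4, its co-receptor Cd14 and the lipopeptide receptor Tlr2 had a fitted change of 0.29 ± 0.14, 0.45 ± 0.28 and 0.49 ± 0.27 and were not called.

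Fc receptors and their adaptors had a median change of 0.92, with 4 of 4 higher, 0 called by limma and 4 at an unadjusted p below 0.05. Fcer1g, the gamma chain that signals for several Fc receptors, read 6.94, 7.08 and 6.91 on wild-type chow arrays and 8.38, 9.11 and 7.21 on the cholesterol-fed arrays. Its Lats2-CKO values were 6.31, 5.72 and 6.11 against 6.65, 7.95 and 7.26, so the diets were apart in each genotype, and the change was 1.25 ± 0.30 (limma adjusted p = 0.068). The second adaptor, Tyrobp (DAP12), had a fitted change of 0.84 ± 0.26 and the high-affinity IgG receptor Fcgr1 one of 1.0 ± 0.29. Fcgr3, a low-affinity IgG receptor that shares sequence with its neighbour Fcgr2b, had a fitted change of 0.45 ± 0.12, and its 6 cholesterol-fed values lay above all 6 chow values. The gap was narrow, from 4.12 to 4.13, and the fitted change in Lats2-CKO livers was 0.17 ± 0.17.

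The NADPH oxidase genes had a median change of 0.76, with 0 of 4 called by limma and 2 at an unadjusted p below 0.05. Cybb, the catalytic gp91phox subunit, read 7.64, 8.14 and 8.42 in wild-type livers on chow and 10.44, 9.16 and 8.39 on the cholesterol diet, where array 3 lay within the chow range. In Lats2-CKO livers 7.02, 6.67 and 7.09 stood against 8.07, 9.02 and 8.48, without overlap, and the change over both was 1.43 ± 0.31 (limma adjusted p = 0.0513). Cyba, its membrane partner p22phox, had a fitted change of 1.02 ± 0.28. The cytosolic subunits Ncf1 and Ncf4 had a fitted change of 0.50 ± 0.29 and 0.25 ± 0.14. Ncf1 was dim, below the 30th percentile of all values (3.048) on 4 arrays, and read 5.19 on wild-type cholesterol-fed array 2 and 2.91 to 3.75 on the others.

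Genes shared by all leukocytes had a median change of 0.77, with 8 of 8 higher, 0 called by limma and 8 at an unadjusted p below 0.05. Laptm5, a lysosomal membrane protein of blood cells, had the smallest unadjusted p (0.00249) and read 4.02, 3.94 and 4.08 on wild-type chow arrays against 5.69, 5.47 and 4.38, for a change over both genotypes of 0.79 ± 0.20 (limma adjusted p = 0.082). On Lats2-CKO arrays it read 4.13, 3.86 and 3.72 on chow and 4.04, 4.65 and 4.26 on the cholesterol diet, which overlapped. Ptprc, the leukocyte phosphatase CD45, had a fitted change of 1.04 ± 0.35, the tetraspanin Cd53 one of 1.18 ± 0.33 and the protein kinase C substrate Plek one of 1.13 ± 0.43. Cd48, a ligand of leukocyte adhesion, and the small surface glycoprotein Cd52 had a fitted change of 0.75 ± 0.31 and 0.70 ± 0.27. The actin-binding genes Coro1a and Lcp1 had the smallest fitted changes of this group, 0.52 ± 0.15 and 0.17 ± 0.07.

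Of the integrin chains, which pair as the complement receptor Mac-1, Itgb2 read 4.16, 4.52 and 4.79 on wild-type chow arrays and 5.54, 8.09 and 5.48 on the cholesterol-fed arrays. On Lats2-CKO arrays it read 4.48, 4.46 and 4.19 against 4.56, 5.82 and 5.15, and the change over both genotypes was 1.34 ± 0.41 (limma adjusted p = 0.125). Its partner Itgam was dim, with 5.08 on wild-type cholesterol-fed array 2 and 2.93 to 3.49 elsewhere, and had a fitted change of 0.36 ± 0.28. S100a8 read 3.82, 3.69 and 3.14 on wild-type chow arrays and 3.77, 3.79 and 3.24 on cholesterol-fed arrays, and 3.71, 3.30 and 3.43 against 3.36, 3.60 and 3.82 in Lats2-CKO livers, so that all groups overlapped.

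Taken by genotype, the median diet change of the 38 was 1.0 in wild-type livers and 0.56 in Lats2-CKO livers, against -0.021 and -0.016 over all genes. In wild-type livers 37 had higher fitted values (44.8% of all genes). There limma called 0 (0.0% of all genes), at adjusted p of 0.307 or more, with 26 at an unadjusted p below 0.05 (4.03% of all genes on the higher side). In 16 of the 38 every cholesterol-fed array lay above every chow array, against 4.97% of all genes. In Lats2-CKO livers 35 had higher fitted values (46.4% of all genes) and 1, Ly86, rose, by 2.10 ± 0.32 (limma adjusted p = 0.0324), where 0.126% of all genes passed on that side. There 11 were higher at an unadjusted p below 0.05 (6.21% of all genes) and 19 had groups that did not overlap (8.98%). The wild-type median was 1.03 without wild-type chow array 3, and 0.83, 0.76 and 1.38 without wild-type cholesterol-fed array 1, 2 and 3 in turn. By array set it was 1.21 (higher set, with 1 cholesterol-fed array) and 0.91 (lower set, with 1 chow array). With the same limit, the Lats2-CKO median was 0.19 in the higher set, with 28 of 38 genes higher, and 0.82 in the lower. It ran from 0.46 to 0.80 as single arrays were left out. The wild-type count of calls was 5 (C1qc, Cyba, Laptm5, Ms4a7 and Clec4n) without wild-type cholesterol-fed array 3. Ly86 was no longer called in Lats2-CKO livers with the array sets as a block or without Lats2-CKO chow array 2 or 3, wild-type cholesterol-fed array 2, or any 1 of the 3 Lats2-CKO cholesterol-fed arrays, and without wild-type cholesterol-fed array 1 Lyz2 was called beside it.

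**Figure D3:**
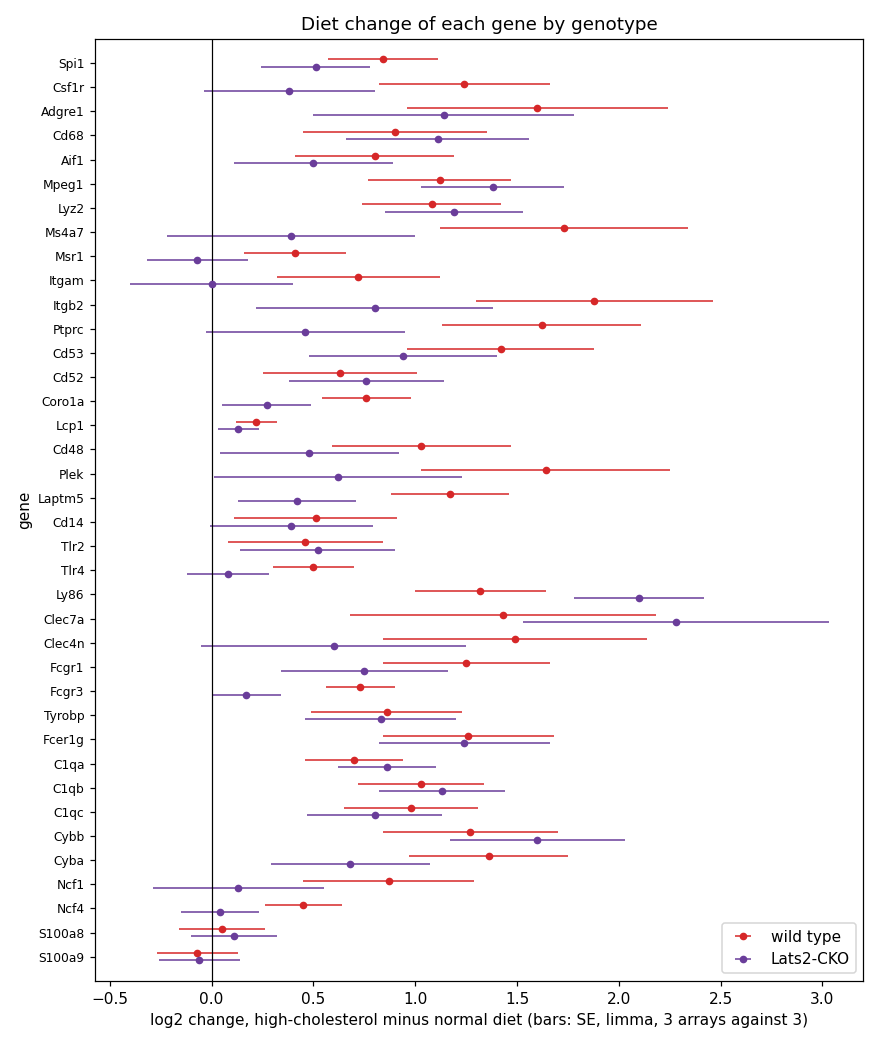
Log2 change from chow to the cholesterol diet for each of the 38 genes, in wild-type (red) and Lats2-CKO livers (purple), with the SE of the limma fit (3 arrays against 3) as bars. Most points lie to the right of 0 in both genotypes, S100a8 and S100a9 lie near 0, and the bars of the genotypes overlap for many genes.

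The difference between the diet responses was tested as an interaction, and 0 of the 38 passed (limma adjusted p of 0.888 or more), where 0.0% of all genes passed on the higher side and 0.00451% on the lower. At an unadjusted p below 0.05, 1 of the 38, Fcgr3, differed (-0.55 ± 0.24, Lats2-CKO minus wild type), against 2.25% of all genes on the lower side. For the genes called above, the interaction was 0.78 ± 0.45 for Ly86, 0.26 ± 0.49 for Mpeg1 and 0.10 ± 0.44 for C1qb, and the sign of the last 2 turned without Lats2-CKO cholesterol-fed array 2 (-0.14 and -0.08), that of C1qb also without Lats2-CKO chow array 2 (-0.19) or wild-type cholesterol-fed array 3 (-0.15). The median interaction was -0.37, with 26 of 38 below 0 (49.2% of all genes), and it was -0.03 without wild-type cholesterol-fed array 2 and -0.65 without array 3 of that group. The smaller Lats2-CKO median is thus not shown to differ.

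Within the wild-type cholesterol-fed group the arrays did not carry the same pattern. Arrays 1 and 2 lay above every wild-type chow array for 35 of the 38 genes each, and array 3 for 17, against 26.0%, 21.6% and 21.5% of all genes. Above the wild-type chow mean the median gene stood by 1.19 on array 1, 1.37 on array 2 and 0.17 on array 3. Array 2 was the highest of the 12 arrays for 23 genes and array 1 for 12, while array 3 was the highest of its own group for 0.

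Arrays 1 and 2 also differed from each other by gene. Clec7a was 3.64 log2 units lower on array 2 than on array 1, and Cybb, Cd68 and Lyz2 were lower there by differences of -1.28, -1.17 and -1.14. Itgb2, Adgre1, Itgam, Clec4n and Ncf1 were higher on array 2, by 2.55, 2.32, 1.58, 1.56 and 1.43. In all, 25 genes were higher on array 2 and 13 on array 1, against 44.4% of all genes on array 2. The 3 C1q chains were near to each other on the 2 arrays, with differences of -0.08 to 0.33.

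**Figure D4:**
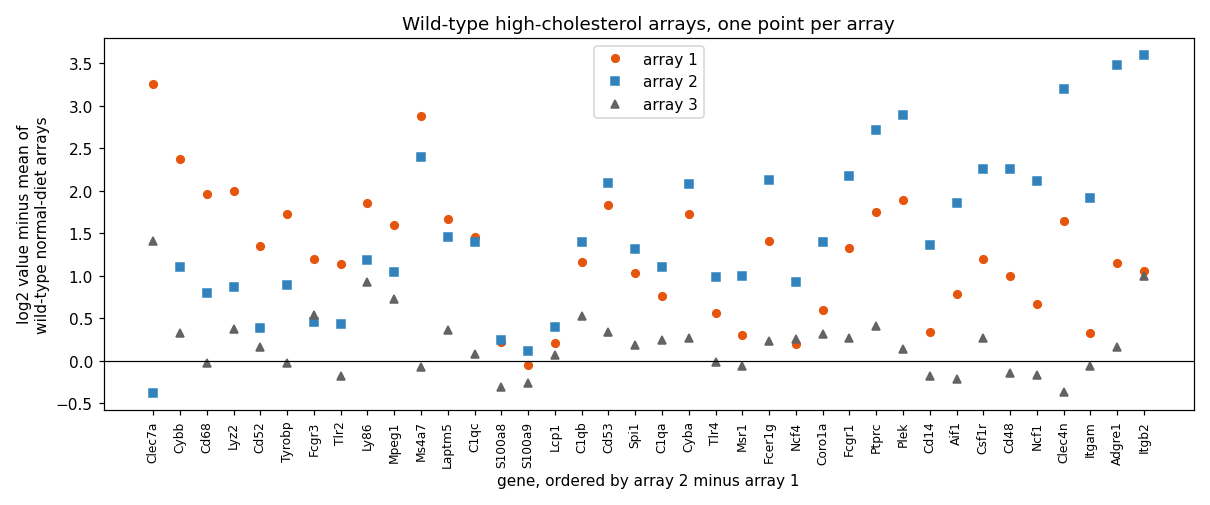
Log2 value on each wild-type cholesterol-fed array minus the mean of the 3 wild-type chow arrays, for the 38 genes ordered by array 2 minus array 1. Clec7a stands highest on array 1 (3.26) and below 0 on array 2, Itgb2 and Adgre1 stand highest on array 2 (3.60 and 3.48), and most points of array 3 lie near 0.

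Markers of other cells differed between these arrays as well. The mean of 6 markers of lipid-associated macrophages, centred on the 12 arrays, was 1.97 on array 1, -0.11 on array 2 and 0.26 on array 3, and 0.75 on wild-type chow array 3 against -0.59 and -0.50 on the other 2. The mean of 8 Kupffer cell markers was 0.40, 1.33 and -0.06 on the 3 cholesterol-fed arrays. That of 8 B cell markers was 0.21, 1.21 and -0.26, and Slc4a1, the band 3 protein of red cells and the 1 measured of 6 erythroid markers, read 4.07 on array 2 and 2.79 to 3.07 on the other 11 arrays. Array 1 thus carried the highest level of lipid-associated macrophage markers and array 2 of Kupffer cell markers, B cell markers and the single gene Slc4a1. Slc4a1 was dim, with its mean below the 30th percentile of all values (3.048). Since leukocyte genes such as Ptprc and Cd48 are also read in B cells, the part of B cells in the values of array 2 was not tested.

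The means of T cell, NK cell and neutrophil markers were low on every array, with the mean of 8 NK cell markers at 3.37 or less. The mean level of 9 T cell markers was 3.08 to 3.13 on wild-type chow arrays and 3.12 to 3.35 on the cholesterol diet, and 3.01 to 3.05 and 3.02 to 3.27 in Lats2-CKO livers, with Cd3d and Cd4 below the 30th percentile on all arrays. That of 11 neutrophil markers was 3.10 to 3.79, 3.38 to 3.80, 3.44 to 3.62 and 3.36 to 3.55 in the same order, and 5 of them had a mean below that percentile. Their median change with diet over both genotypes was -0.01, with 0 called by limma and 0 at an unadjusted p below 0.05. The secretory granule gene Ngp, the neutrophil marker with the smallest p, read 5.41 and 4.46 on wild-type cholesterol-fed arrays 1 and 2 and 2.82 to 3.38 elsewhere.

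**Figure D5:**
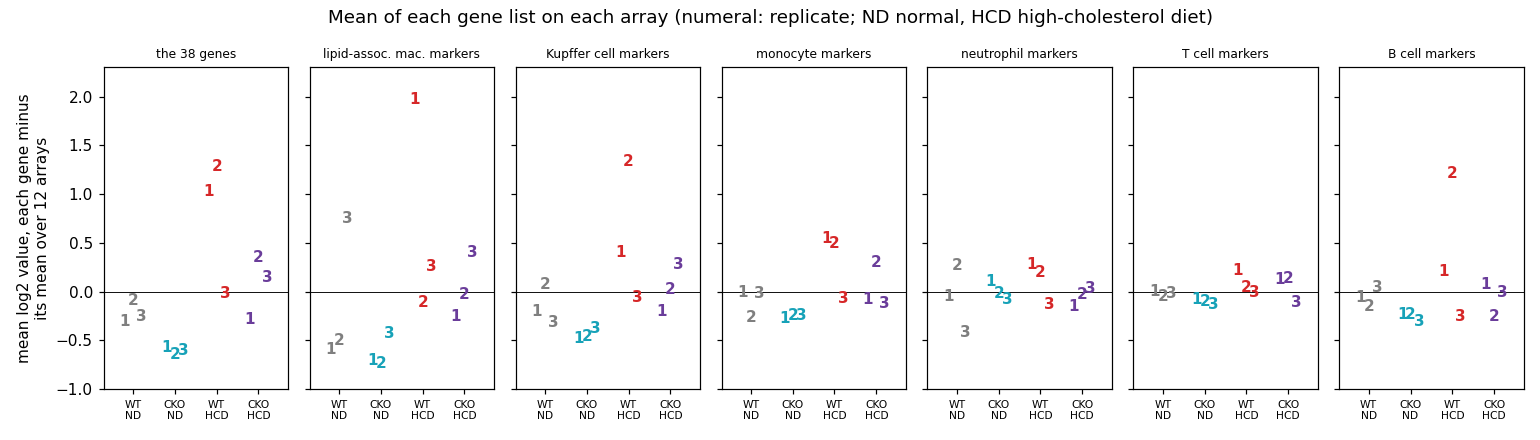
Mean log2 value of the 38 genes and of 6 cell type marker lists on each array (numeral, the replicate number), each gene centred on its mean over 12 arrays. Lipid-associated macrophage markers stand highest on wild-type cholesterol-fed array 1 (1.97), and Kupffer cell and B cell markers on array 2 (1.33 and 1.21).

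Most of these genes had lower fitted values in Lats2-CKO than in wild-type livers on either diet, but with all arrays 0 of the 38 passed in any genotype comparison. The median change (Lats2-CKO minus wild type) was -0.31 on chow, with 32 of 38 below 0, and -0.70 on the cholesterol diet, with 38 of 38 below 0, where 50% and 48.0% of all genes were below 0, as over both diets all 38 and 49.3% were. Limma adjusted p was 0.31 or more on chow, 1.0 on the cholesterol diet and 0.565 or more over both diets, and 0.0% of all genes passed on the lower side in each. At an unadjusted p below 0.05, 5 genes were lower on chow (5.45% of all genes), 11 on the cholesterol diet (1.94%) and 16 over both diets (3.77%). The diet and genotype comparisons share arrays, so a group that lies low or high enters both.

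Markers of some other liver cells also had lower fitted values in Lats2-CKO livers. The mean level of 8 liver endothelial cell markers was 7.45 to 7.49 on wild-type and 6.84 to 7.14 on Lats2-CKO arrays on chow, and 7.37 to 7.57 against 6.94 to 7.22 on the cholesterol diet, without overlap on either diet. Over both diets 8 of 8 of them had lower fitted values (median -0.38), with 0 called by limma and 5 lower at an unadjusted p below 0.05. Of all genes 3.77% were lower at that p. Of the Kupffer cell markers 7 of 8 had lower fitted values (median -0.31), with 0 called and 2 lower at that p, among them Cd5l (-1.17 ± 0.32, limma adjusted p = 0.624). Lipid-associated macrophage markers were lower in 6 of 6 (median -0.38) and B cell markers in 7 of 8 (-0.30), with 0 called and 0 at that p in each. Hepatocyte markers were lower in 4 of 10 (median 0.02). The part of these cells in the lower values of the 38 genes was not tested.

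On chow 14 of the 38 had every Lats2-CKO array below every wild-type array, against 7.36% of all genes. Lyz2 read 8.58, 8.94 and 8.97 in wild-type and 8.26, 7.57 and 7.54 in Lats2-CKO livers, a difference of -1.04 ± 0.34, and Cybb, given above, differed by -1.14 ± 0.43. C1qa and C1qb differed by -0.52 ± 0.24 and -0.76 ± 0.31, and Ly86 by -1.01 ± 0.32. Adgre1 read 6.52, 7.26 and 6.44 against 5.82, 5.64 and 5.68. These 3 Lats2-CKO arrays were close to each other, with the mean of the 38 genes, centred on the 12 arrays, at -0.57, -0.65 and -0.60, below each of the other 9 arrays.

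On the cholesterol diet the wild-type arrays were widely spread and only Lyz2 and Fcgr3 had groups that did not overlap (3.37% of all genes on the lower side). The largest fitted differences were those of Ms4a7 (-1.65 ± 0.61), Adgre1 (-1.48 ± 0.64) and Ptprc (-1.33 ± 0.49). For each of them wild-type array 3 lay within the Lats2-CKO range, for the dim Ms4a7 at 3.27 against 2.90 to 4.08. Without wild-type cholesterol-fed array 3 the median was -1.14 and 2 genes, Laptm5 and Ms4a7, were called lower. It was -0.38 without array 2 and -0.49 without array 1 of that group. Within the higher array set, which held only cholesterol-fed array 1 of each genotype, it was -1.47, and within the lower set it was -0.39. Set beside the wild-type chow mean, the median gene stood at -0.09, 0.46 and 0.30 on the 3 Lats2-CKO cholesterol-fed arrays and at -0.22, -0.27 and -0.30 on the Lats2-CKO chow arrays.

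Of 58 other genes of the same pathways, 0 were called by limma for diet over both genotypes. At an unadjusted p below 0.05, 24 were higher and 2 lower, where 7.56% of all genes were higher. Fc receptor and ITAM signalling genes outside the 38 had a median of 0.55, with 15 of 15 higher, led by the receptor Fcgr4 at 1.25 ± 0.30 (limma adjusted p = 0.0658), whose values were 5.67 to 6.23 and 6.49 to 7.80 in wild-type livers. Toll-like receptor pathway genes had a median of 0.45 (9 of 14 higher), with the lipopolysaccharide-binding protein Lbp, which hepatocytes secrete, at 0.42 ± 0.11. At an unadjusted p below 0.05 this list had 7 higher and 2 lower, Ly96 at -0.94 ± 0.35 and Tirap at -0.59 ± 0.18. For oxidase and GTPase partners the median was 0.59 (4 of 5), with the Rac activator Dock2 at 1.05 ± 0.30. Medians were 0.22 for complement genes (8 of 8, the stabiliser properdin, Cfp, at 0.69 ± 0.21), 0.14 for myeloid transcription factors (7 of 9, Ikzf1 at 0.63 ± 0.18) and 0.10 for colony-stimulating factors and their receptors (5 of 7, Csf2ra at 0.25 ± 0.13).

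Among the cell type markers 3 genes rose with the diet over both genotypes. The Kupffer cell genes Cd5l, a secreted scavenger receptor protein, and Clec4f, a lectin, rose by 1.78 ± 0.32 and 0.53 ± 0.09 (limma adjusted p = 0.038 and 0.0327), in a list with 7 of 8 higher and a median of 0.54. At an unadjusted p below 0.05 (7.56% of all genes were higher) this list had 4 higher and 1 lower, Cd163 at -0.87 ± 0.34, a scavenger receptor for haemoglobin. The monocyte list had a median of 0.35 (6 of 7 higher), and in it the chemokine receptor Cx3cr1 rose by 0.49 ± 0.10 (limma adjusted p = 0.0484), from 2.97 to 3.53 on the chow arrays to 3.37 to 3.82, which overlapped. Cx3cr1 was dim, and its lowest chow value lay below the 30th percentile of all values (3.048). Over 21 alternatives Clec4f was called in 11 (adjusted p 0.00914 to 0.0808), Cd5l in 10 (0.00628 to 0.107) and Cx3cr1 in 7 (0.00708 to 0.129). None of the 3 was called with the array sets as a block, or without wild-type chow array 1 or 2, any 1 of the Lats2-CKO arrays, or wild-type cholesterol-fed array 2; Cd5l and Cx3cr1 were also not called without wild-type cholesterol-fed array 1, nor Cx3cr1 without array 3 of that group. The lipid-associated macrophage list had a median of 0.46 (5 of 6 higher) with 0 called by limma. At an unadjusted p below 0.05 it had 2 higher and 1 lower, and its lipase Lpl had a fitted change of 2.08 ± 0.47 and its fatty acid binding protein Fabp5 one of -0.73 ± 0.20. Medians for dendritic cell, T cell, NK cell and B cell markers were 0.20, 0.08, 0.11 and 0.33, with 0 called by limma in each. At an unadjusted p below 0.05, 3 dendritic cell and 1 T cell markers were higher, 1 NK cell marker was higher and 1 lower, and 0 B cell markers passed. They were -0.05 for hepatocyte, 0.04 for liver endothelial cell, 0.07 for stellate cell, 0.00 for cholangiocyte and -0.06 for mast cell and basophil markers, again with 0 called by limma. At that p, 1 hepatocyte and 1 mast cell or basophil marker were lower, 2 stellate cell markers were higher and 2 lower, 1 cholangiocyte marker was higher, and 0 endothelial markers passed.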

How the data were processed

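The values are log2 expression per probe set of 12 Affymetrix arrays, deposited by the authors as 1 table, and the submitters' processing notes name RMA and Partek 6.6. The log2 scale was taken from the range of the values (1.94 to 14.2). RMA gives the arrays 1 common scale, so a change common to most genes would not show. Probe sets were named through the platform annotation, with symbols updated through the gene identifier to RefSeq. Of 41345 probe sets, 23521 had 1 symbol, 1814 several and 16010 none, and those with 1 symbol gave 22180 genes, 1082 of them with several probe sets, of which the one with the highest mean was kept. Each of the 38 genes has 1 probe set.

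Groups came from the sample titles. The means of 4 groups were fitted to all genes with limma 3.58.1 (R 4.3.3, lmFit and eBayes), with Benjamini-Hochberg adjustment over all genes and a threshold of 0.05. The fit was tested on simulated data with independent noise and no array sets, so that test does not cover the effect of the sets on the calls. No 2 arrays were identical. With 3 arrays a group, the number of arrays limits the precision. The 38 genes and all lists were chosen with earlier results of these data known. Values on every array were to be given for the gene with the smallest p in each role and for every gene called. Those of further genes (Adgre1, Cd68, Lyz2, Ms4a7, Clec7a, Clec4n, Itgam, Ncf1 and Lpl) were added after their values were seen. Cd163, Fabp5, Ly96 and Tirap were named on the same ground. Alternatives were the replicate number or the array set as a block, other priors, array weights, dim genes left out, other scalings and probe set rules, only the groups compared, and each array left out. The medians within array sets were added after seeing the data.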

Additional observations from a re-analysis of the deposited data

How the results depend on the processing

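The medians of the 38 genes kept their sign in the 7 comparisons under the alternatives run, except that the interaction's was -0.00 to 2 decimals with array weights. Leaving out single arrays, they ran from 0.74 to 1.06 for diet over both genotypes, 0.76 to 1.38 in wild-type and 0.46 to 0.80 in Lats2-CKO livers, -0.37 to -0.23 for genotype on chow, -1.14 to -0.38 on the cholesterol diet, -0.71 to -0.38 over both diets and -0.65 to -0.03 for the interaction. Within the higher array set they were 0.19 for diet in Lats2-CKO livers, -1.47 for genotype on the cholesterol diet, -0.95 over both diets and -0.88 for the interaction. That set held only 1 cholesterol-fed array of each genotype. The causes of the shifts below were not tested.

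Of the 38 genes, the number called for diet over both genotypes was 3, and it was 6 with a trended and robust prior, 8 with array weights, 7 with dim genes left out, 1 under a block for array set (the set block), 5 with that block and without wild-type chow array 3, and 0 to 19 with single arrays left out. For diet it was 0 to 5 in wild-type and 0 to 2 in Lats2-CKO livers with single arrays left out; in Lats2-CKO livers it was 4 with only the groups compared, 2 with array weights and 0 with the set block. For genotype on the cholesterol diet it was 0 to 2. With the replicate block it was 1 for diet over both genotypes, and 311 genes were called with that block and 274 without. Deviations from the group means correlated at 0.002 to 0.176 between same-numbered arrays. Differently numbered arrays were not set beside these, so whether the numbers pair the arrays was not settled. All arrays numbered 1 were in the higher array set and all numbered 3 in the lower.

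Over all genes, 274 were called for diet over both genotypes, 0 in wild-type and 60 in Lats2-CKO livers. For the first, array weights gave 1371, dim genes left out 420, the set block 43, and the same without wild-type chow array 3 1229; single omissions gave 6 to 1605. In wild-type livers array weights gave 13, the latter block 374 and single omissions 0 to 516. In Lats2-CKO livers only the groups compared gave 265, the trended prior 98, array weights 274, dim genes left out 109, the set block 33, that block without the array 573 and single omissions 5 to 468. For genotype on chow (3 called) the values were 1 with only the groups compared, 5 with the trended prior, 11 with the set block, 6 with that block without the array, and 3 to 17; on the cholesterol diet (0) single omissions gave 0 to 22. For genotype over both diets (1) the trended prior gave 2, array weights 3, the set block 2, that block without the array 2, and single omissions 1 to 8. For the interaction (1) the trended prior gave 2, dim genes left out 3, the set block 2 and single omissions 1 to 2.

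Of 2824 values of 132 single-gene results, 2674 kept their direction and side of the threshold, 69 lost the call, 72 gained it and 9 turned sign. The latter were, for diet over both genotypes, S100a8 (-0.02 to 0.17 with single arrays left out, and -0.03 with the set block without that array), S100a9 (-0.15 to 0.06) and Slc4a1 (-0.14 to 0.18, and -0.00 with the set block without that array), and, for the interaction, C1qb (-0.19 to 0.39, with -0.15 and -0.08 between) and Mpeg1 (-0.14 to 0.67).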
